A study of Ovis aries with 95 samples.

Results

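CD9 and CD81 were followed in the brain of fetal and newborn sheep with the oligonucleotide probes whose gene name, accession or description on the array is CD9 or CD81. There were 3 such probes, 2 for CD9 and 1 for CD81, among 15008 distinct gene probes, and CD9 and CD81 are 2 of 14346 gene names. RNA came from cortex, brainstem, hippocampus and hypothalamus of untreated fetuses at gestational ages of 80, 100, 120, 130 and 145 d, and from lambs on the first day of life, called newborn here. The group names 100 d and 145 d stand for ages that spread over a few days. Each of the 24 groups of region and age had 4 arrays, except hippocampus at 100 d with 3, and each array held Cy3-labeled RNA of 1 sample. Strain and sex were not given in the sources used here. According to the study's methods, no ewe showed signs of labor and each group contained a set of twins. By the numbers of fetuses and samples in those methods, the regions at an age came from the same fetuses, so their arrays share animals. The labels mark neither the twins nor which arrays share an animal, so all arrays were treated as independent, and p-values measure the spread between these samples.

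CD9 and CD81 are tetraspanins, small proteins that cross the cell membrane several times and gather integrins, immunoglobulin superfamily proteins and receptors into membrane domains. In the nervous system CD9 is known from oligodendrocytes and myelin, and outside it from platelets and many epithelia. CD81 is known from astrocytes and microglia, and outside the brain from lymphocytes. Of a list of 33 tetraspanin genes, these were the 2 with a named probe, so no other member of the family is described.

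The probes are shown because the CD9 probes are nearly the same sequence, so that they measure 1 stretch of RNA and are no independent evidence of each other. Both were designed on the same expressed sequence tag and share 59 of 60 bases, offset by 1 base; the capital marks the base that the other probe does not have. They are given 5′ to 3′ as in the deposited files:
CD9 probe 1: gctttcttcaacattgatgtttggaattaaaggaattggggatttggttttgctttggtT
CD9 probe 2: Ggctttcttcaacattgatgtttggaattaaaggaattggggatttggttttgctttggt
CD81 probe: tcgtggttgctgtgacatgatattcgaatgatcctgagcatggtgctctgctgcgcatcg
The CD9 probes contain 35% and 36.7% G or C and the CD81 probe 51.7%, against a median of 43.3% over all probes. No other probe on the array shares 20 bases with any of them. Their position in the genome was not determined here.

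Levels are background-corrected, quantile-normalized intensities on the log2 scale, on which a difference of 1 is a 2-fold change, and the level of CD9 is the mean of its 2 probes on an array. The levels of CD9 and CD81 come from different probes and were not set against each other. The CD81 spot was well above background on all 95 arrays. CD9 probe 1 was above it on 94 arrays and probe 2 on 92, and the exceptions were all arrays of 1 hippocampus slide, called slide 4 below. None of the spots was saturated. Where arrays of 2 groups are said not to overlap, this is a description. The share of all genes whose groups separate in that way was not counted. In whole tissue, a lower level from fewer cells of a type and one from less RNA per cell cannot be told apart. GFAP, the astrocyte intermediate filament, had its highest median in brainstem (12.44), and OXT, the oxytocin precursor, in hypothalamus (10.82, against 7.81 to 8.59 in the other regions).

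The arrays lie on 14 slides, and every slide holds 1 region only, numbered here within its region. The study's methods name fewer slides for hippocampus and hypothalamus than the file headers show, a difference that was not resolved. Some slides stood apart in CD9. On slide 4 of hippocampus, which holds 8 arrays and none from 80 d, CD9 lay on average -2.16 from the mean of its age groups, and none of the 12688 genes tested in hippocampus deviated further down. CD81 lay at -0.89 there, with 133 genes lower. On slides 1, 2 and 3 of hippocampus CD9 lay at 0.57, 1.45 and 1.86, with 273, 1 and 0 genes higher. The age means behind these deviations include the arrays of slide 4. On slide 3 of cortex, also 8 arrays, CD9 deviated by -0.61 (29 of 12901 genes were lower) and CD81 by -0.10. In brainstem, no slide deviated by more than 0.15 in either direction for CD9 or 0.02 for CD81. In hypothalamus CD9 deviated by 0.66 on slide 3. Results that rest on slide 4 of hippocampus or slide 3 of cortex are given with and without these slides.

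**Figure D1:**
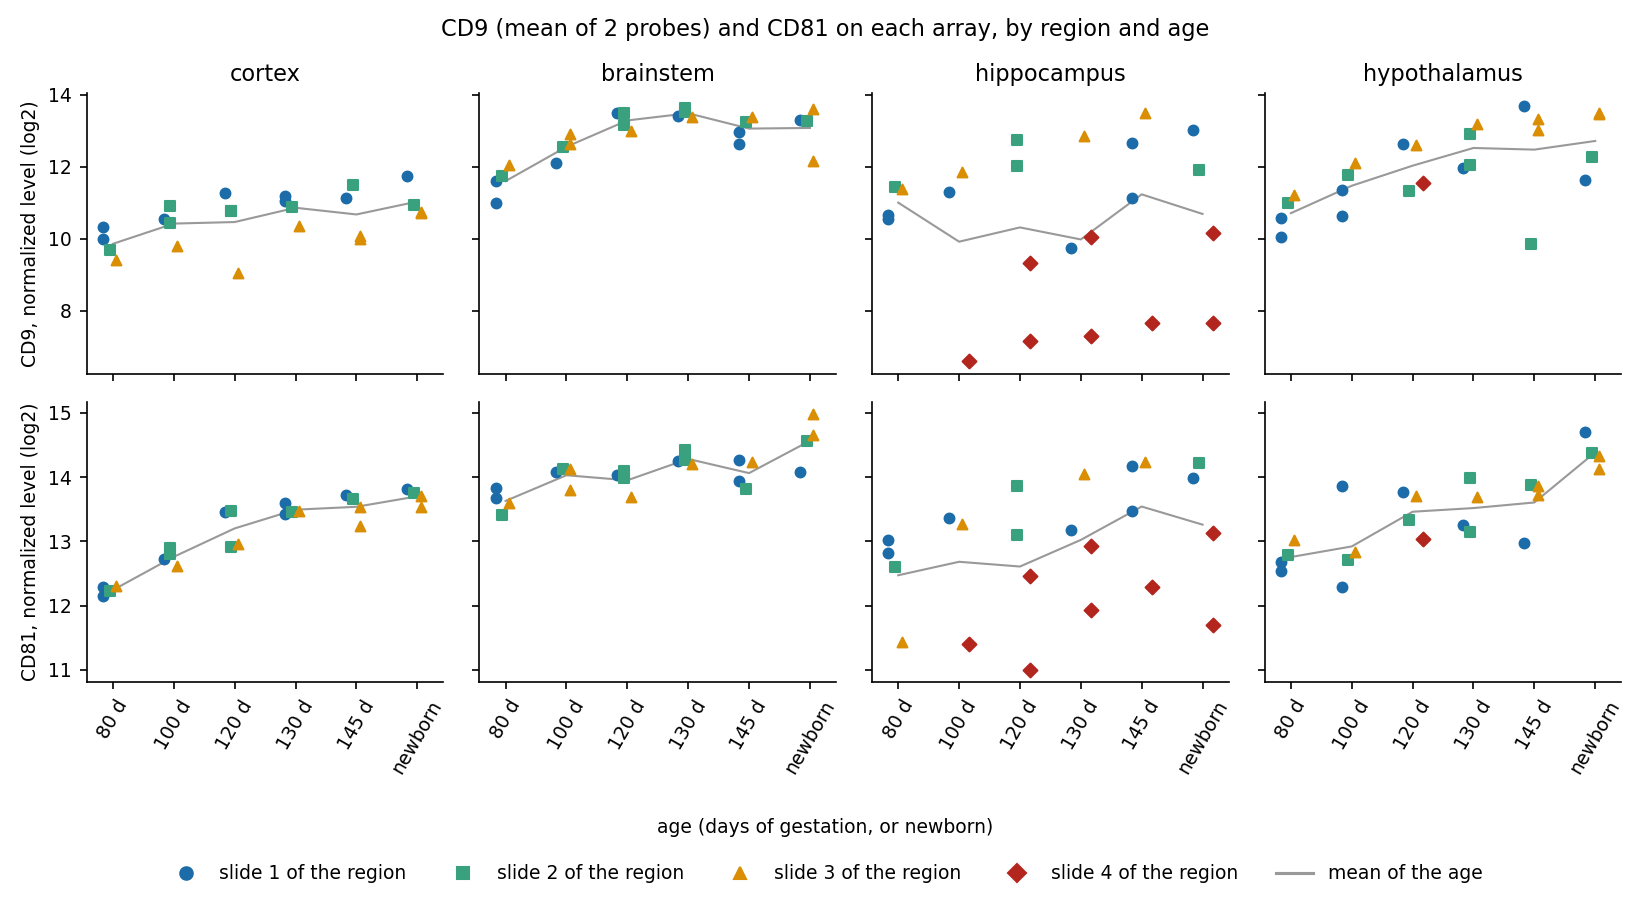
Each point is 1 array, with the normalized level (log2) of CD9 (top, mean of 2 probes) or CD81 (bottom) on the vertical axis, age on the horizontal axis, 1 panel per region, and color and shape giving the slide within the region; gray lines join the means of the ages. CD9 and CD81 climbed in tight groups in brainstem and cortex, respectively, while the 8 arrays of hippocampus slide 4 (red diamonds, CD9 6.60 to 10.15) lay below most other hippocampus arrays.

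In brainstem, CD9 rose through the first part of the period studied and then stayed high. At 80 d the 4 arrays read 11.62, 11.001, 11.75 and 12.06, at 100 d 12.12, 12.55, 12.93 and 12.65, and at 120 d 13.51, 13.16, 13.50 and 13.001. The 130 d arrays lay between 13.37 and 13.63, the highest mean of any group (13.49 ± 0.12, SD, n = 4). Each array at 100 d was above each at 80 d, and each at 120 d above each at 100 d. At 145 d the values were 12.98, 12.64, 13.25 and 13.39, so that the arrays of 145 d and 80 d did not overlap. The rise from 80 d to 145 d was 1.46 (standard error 0.26, 2.75-fold, adjusted p = 0.000153 from limma), and the F test over the ages also passed (adjusted p = 6.84e-05). In brainstem 40.6% of all genes passed that F test, 37.5% passed the fetal contrast and 17% rose in it.

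Among neighboring ages in brainstem, the step of CD9 from 80 d to 100 d passed (0.95, standard error 0.26, adjusted p = 0.0213 from limma), as did 4.4% of genes in the upward direction. The step from 100 d to 120 d was 0.73 with an adjusted p of 0.155, where 3.36% of genes passed. Without 80 d replicate 2, 100 d replicate 3 or 100 d replicate 4 the first step lost its call (adjusted p up to 0.0957), and with probe 2 alone it was 0.92 (adjusted p = 0.23). Within the 3 slides the rise from 80 d to 145 d was 1.33 to 1.50.

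The newborn values of CD9 in brainstem were 13.29, 13.28, 13.60 and 12.16, and newborn minus 145 d was 0.02 (standard error 0.26, adjusted p = 0.975). The low value of replicate 4 came from probe 2, which read 10.27 on that array where probe 1 read 14.04. That array has a dim area that covers 3235 probes, and the probe 2 spot lies in it. Spots in the area deviated by a median of -0.94 from the mean of the other arrays of the group, against 0.37 outside it. Probe 2 minus probe 1 was -3.77 on that array, and the part of the dim area in this gap was not tested. With the dim area left out, newborn minus 145 d was 0.49 and still did not pass (adjusted p = 0.189). With each spot's neighborhood deviation subtracted it was -0.016 (adjusted p = 0.973 from limma). Smaller areas of low signal were found on arrays of hippocampus and hypothalamus.

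In cortex, the means of CD9 were higher at every later age than at 80 d, but the change did not pass in the fit without a block. The 80 d arrays read 10.01, 10.34, 9.69 and 9.42, the 145 d arrays 11.14, 11.50, 9.999 and 10.07, and the newborn arrays 11.74, 10.94, 10.75 and 10.72. The newborn arrays all lay above those of 80 d, while the 145 d arrays overlapped with them. The difference between 145 d and 80 d was 0.82 (standard error 0.40, adjusted p = 0.114 from limma), in a region where 41.4% of genes passed this contrast and 45.7% the F test. The low values at 145 d, 9.999 and 10.07, were both from slide 3. With the slide as a block the difference was 1.09 (standard error 0.23, adjusted p = 0.000514), and without slide 3 it was 1.31 (adjusted p = 0.000946). Within slides 1, 2 and 3 it was 0.97, 1.82 and 0.62, positive in each. Without cortex 120 d replicate 4, the lowest array of the region (9.05), the difference also passed (adjusted p = 0.0474).

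In hypothalamus the means of CD9 were also higher at every later age, and whether the fetal difference passed depended on 1 spot and on the fit. The values were 10.06, 10.57, 11.22 and 11.01 at 80 d, and 10.65 to 12.12, 11.33 to 12.65 and 11.96 to 13.18 at 100, 120 and 130 d. At 145 d they were 13.68, 9.87, 13.33 and 13.03, so that 3 arrays lay above all of those at 80 d and 1 below every other array of the region. The difference between 145 d and 80 d was 1.77 (standard error 0.64, adjusted p = 0.0714 from limma), where 14.1% of genes passed. With the replicate number as a block and all spots kept, the same difference passed (standard error 0.57, adjusted p = 0.0446). On the low array, replicate 2, probe 2 read 7.54 and probe 1 read 12.20, and the scanner software had not marked the spot. Leaving out that spot, which was decided once its value was known, the difference was 2.35 (standard error 0.45, adjusted p = 0.00124). From probe 1 alone it was 2.41 (adjusted p = 0.00388), and the arrays of the 2 ages did not overlap. The slides of hypothalamus also differed. CD9 deviated by 0.66 on slide 3 and by -0.47 on slide 2, and within slides 1, 2 and 3 the difference between 145 d and 80 d was 3.37, -1.14 and 1.97, the negative value being that of the array with the low spot. Newborn arrays read 11.65, 12.27, 13.50 and 13.46, the first 2 of them from 1 probe each because the other spot had an outlier mark.

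**Figure D2:**
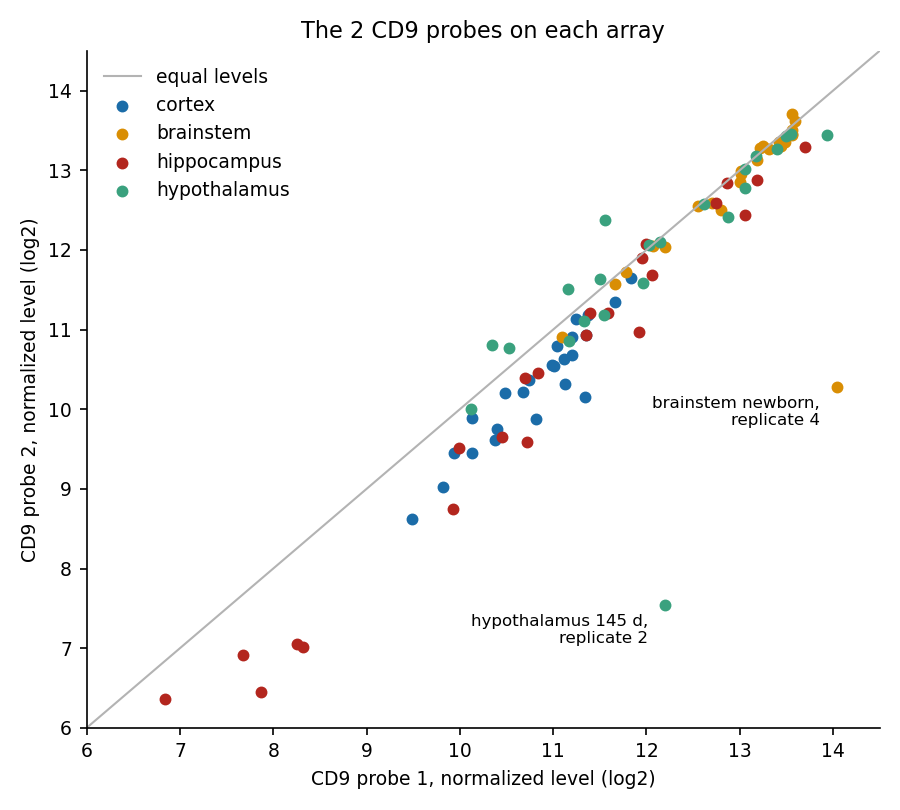
Each point is 1 of the 93 arrays on which both CD9 probes were measured, with the level (log2) of probe 1 on the horizontal and of probe 2 on the vertical axis, color giving the region; the gray line marks equal levels. On 72 arrays the probes lay within 0.5 of each other, and the 2 arrays named in the plot are those with a gap over 2.

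Over the 93 arrays with both probes, probe 2 minus probe 1 had a median of -0.25. The gap was within 0.5 on 23 of 24 brainstem arrays, 20 of 22 in hypothalamus, 15 of 24 in cortex and 14 of 23 in hippocampus. It was over 1 on 8 arrays, of which 5 were on hippocampus slide 4. Whether the gap differed between 145 d and 80 d or between newborn and 145 d was tested in each region with an exact permutation test, and none of the 8 comparisons passed (adjusted p of 0.886 in each). The smallest two-sided p that 4 arrays against 4 allow is 0.0286, or 0.229 for 1 comparison alone after adjustment over 8, and the newborn comparison in hypothalamus had 2 arrays against 4 (smallest p 0.0667), so that a single gap could not have passed. In brainstem the probes gave nearly the same rise from 80 d to 145 d, 1.44 for probe 1 and 1.48 for probe 2. In cortex probe 1 passed (0.86, adjusted p = 0.0408) and probe 2 did not (0.77, standard error 0.49, adjusted p = 0.222).

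In hippocampus the levels of CD9 lay further apart between slides than between ages. On slides 1 to 3 the 80 d arrays read 10.54, 10.65, 11.44 and 11.40, the 145 d arrays 11.14, 12.67 and 13.49, and the newborn arrays 13.03 and 11.92. The 8 arrays of slide 4 read 6.60 at 100 d, 9.34 and 7.16 at 120 d, 7.29 and 10.05 at 130 d, 7.66 at 145 d, and 7.67 and 10.15 in newborn lambs. On the arrays at 6.60, 7.16 and 7.66 probe 2 was not well above background, and at 6.60 neither was probe 1. These CD9 levels therefore include spots near background, which limits how far down they could read. At 100, 120 and 145 d and in newborn lambs every slide 4 array lay below every other hippocampus array of its age. At 130 d they overlapped, since slide 1 held an array at 9.75. Over all arrays, the difference between 145 d and 80 d was 0.23 (standard error 1.53, 95% interval -2.96 to 3.42, adjusted p = 0.958 from limma), so that a rise as large as that of brainstem could not be detected. Without slide 4 it was 1.42 (standard error 0.71, adjusted p = 0.31), and within slides 1 and 3 it was 1.31 and 2.10. Hippocampus had few calls among all genes too, with 4.55% passing this contrast and 3.07% the F test.

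The arrays of slide 4 also differed in how many gene spots were well above background, 59.5 to 79.8% against 72.2 to 85.1% on the other hippocampus slides. The 5 arrays with CD9 between 6.60 and 7.67 had shares of 59.5 to 72.3%, and the 3 arrays with CD9 between 9.34 and 10.15 had shares of 74.9 to 79.8%. On slides 2 and 3, arrays with shares of 72.2 to 76.7% read 11.40 or more in CD9. Of the marker lists on slide 4, the mean of 7 of 15 astrocyte genes deviated by 0.01 from its age groups, that of 3 of 24 oligodendrocyte genes by -0.24, that of 4 of 21 microglia and myeloid genes by -0.29, that of 5 of 14 cell cycle genes by -0.37 and that of 3 of 10 choroid plexus and ependyma genes by 0.44. The 2 erythroid genes deviated by 0.43 (-0.55 and -0.53 on slides 2 and 3) and the 9 endothelial genes by 0.16 (-0.25 and -0.36), and the remaining lists by -0.09 to 0.11. The part of slide, signal and tissue make-up in the low CD9 values was not tested.

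**Figure D3:**
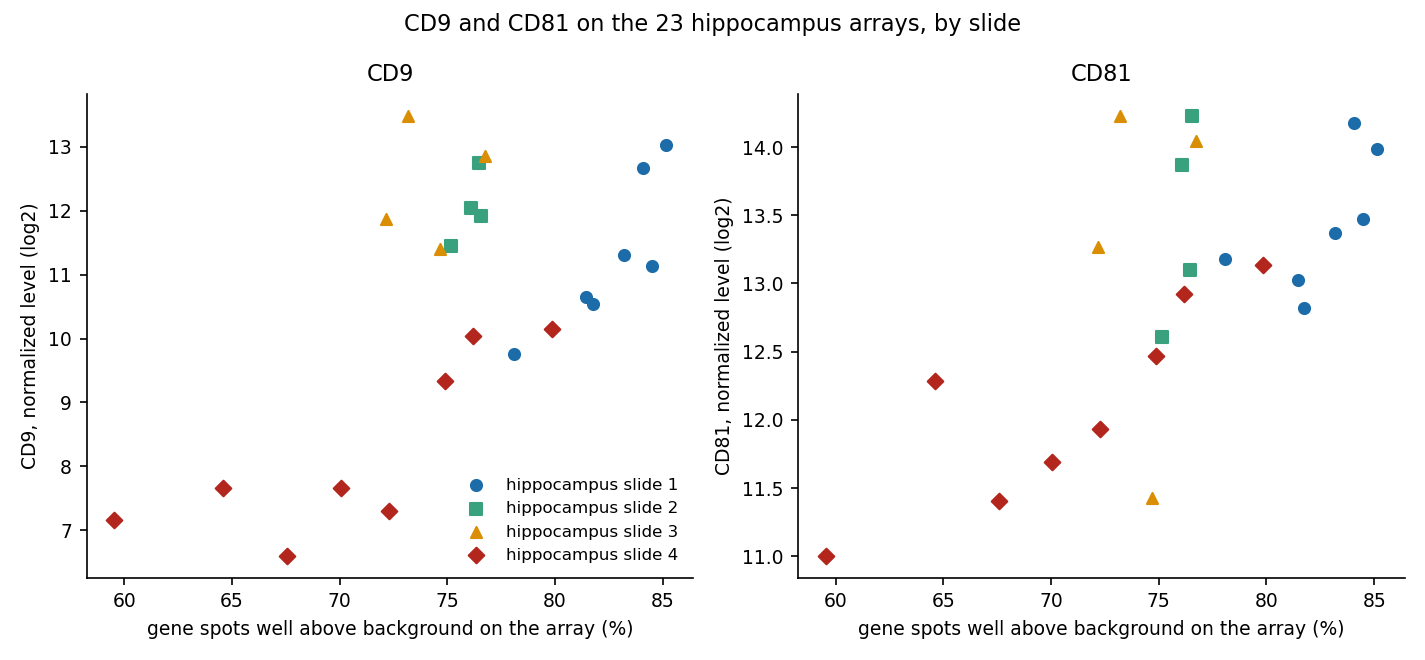
Each point is 1 of the 23 hippocampus arrays, with the percentage of gene spots above background on the horizontal axis and the level (log2) of CD9 (left) or CD81 (right) on the vertical axis; color and shape give the slide. Slide 4 (red diamonds) reached from 59.5 to 79.8%. Its arrays read 6.60 to 7.67 in CD9 at shares of 59.5 to 72.3%, and 9.34 to 10.15 at shares of 74.9 to 79.8%. The part of signal in these values was not tested.

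CD81 rose in cortex with little spread between arrays. The values were 12.15, 12.29, 12.22 and 12.30 at 80 d, 12.72, 12.81, 12.90 and 12.61 at 100 d, and 13.45, 13.47, 12.92 and 12.97 at 120 d. They were 13.43 to 13.60 at 130 d, 13.72, 13.66, 13.53 and 13.24 at 145 d, and 13.81, 13.75, 13.70 and 13.54 in newborn lambs. Every array at 100 d was above every array at 80 d, and the SD of the 80 d arrays was 0.07. The rise from 80 d to 145 d was 1.30 (standard error 0.12, 2.46-fold, adjusted p = 1.72e-08 from limma), and 18.7% of all genes rose in this contrast. The steps from 80 d to 100 d (0.52, adjusted p = 0.0115) and from 100 d to 120 d (0.44, adjusted p = 0.0281) passed, as did 2.53% and 3.06% of genes in the upward direction. Those from 120 d to 130 d (0.29), from 130 d to 145 d (0.05) and from 145 d to newborn (0.16) did not (adjusted p = 0.218, 0.943 and 0.868), and 1.25%, 0.171% and 0.248% of genes did. The first step lost its call without 100 d replicate 3 (adjusted p = 0.0534), and the second lost it without 100 d replicate 1 or 4, without 120 d replicate 1 or 2 (0.35 to 0.54 over all arrays left out in turn), and with the processed signal of the scanner (0.38, adjusted p = 0.11). Within the 3 slides the fetal rise was 1.50, 1.44 and 1.08.

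In brainstem CD81 also rose between 80 d and 145 d. The arrays read 13.83, 13.67, 13.41 and 13.60 at 80 d, 13.93, 14.27, 13.82 and 14.23 at 145 d, and 14.07, 14.56, 14.65 and 14.98 in newborn lambs. The newborn arrays all lay above those of 80 d, while the 145 d arrays overlapped with both groups. The difference between 145 d and 80 d was 0.43 (standard error 0.15, 1.35-fold, adjusted p = 0.0286), and the F test passed (adjusted p = 0.000995). The fetal difference did not pass without 80 d replicate 3 or 4 or without 145 d replicate 2 or 4, with 0.36 to 0.51 and an adjusted p of 0.00958 to 0.0977 over the arrays left out in turn. It was 0.81 (adjusted p = 0.000132) with the processed signal. Newborn minus 145 d was 0.50 (standard error 0.15, adjusted p = 0.0598), in a contrast that 4.9% of genes passed. That step passed with the dim area of newborn replicate 4 left out (adjusted p = 0.0483) and without newborn replicate 1 (0.67, adjusted p = 0.00492).

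In hypothalamus CD81 rose before birth and was highest in newborn lambs. The 80 d arrays read 12.54, 12.67, 13.02 and 12.79, the 145 d arrays 12.97, 13.87, 13.72 and 13.85, and the newborn arrays 14.71, 14.38, 14.13 and 14.33. All newborn arrays lay above all arrays of 80 d and of 145 d, though the step from 145 d did not pass. The F test passed (adjusted p = 0.00273), as it did for 16% of genes. The difference between 145 d and 80 d was 0.85 (standard error 0.28, 1.80-fold, adjusted p = 0.0457), close to the threshold, and with the slide as a block it was 0.82 and did not pass (adjusted p = 0.0661). It also lost its call when any of 14 single arrays was left out (0.76 to 1.06, adjusted p up to 0.123). Newborn minus 145 d was 0.78 (standard error 0.28, adjusted p = 0.12), where 2.48% of genes passed. With the processed signal that step was 0.30 (adjusted p = 0.462).

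In hippocampus the 80 d arrays of CD81 read 12.82, 13.03, 12.61 and 11.43, and the other arrays of slides 1 to 3 lay between 13.10 and 14.23. On slide 4 CD81 was 11.004 to 13.14. Over all arrays the difference between 145 d and 80 d was 1.07 (standard error 0.67, adjusted p = 0.463). It passed without slide 4 (1.49, adjusted p = 0.0405) and with the slide as a block (1.51, adjusted p = 0.0431). Within slides 1 and 3 it was 0.90 and 2.80, the latter resting on the single 80 d array at 11.43. That array, replicate 4, has an area of 1270 probes with low local signal. Other hippocampus arrays have such areas too, the largest of 1201 probes on 130 d replicate 2. All these arrays are included in the hippocampus values given here, and the part of the low areas in them was not tested.

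**Figure D4:**
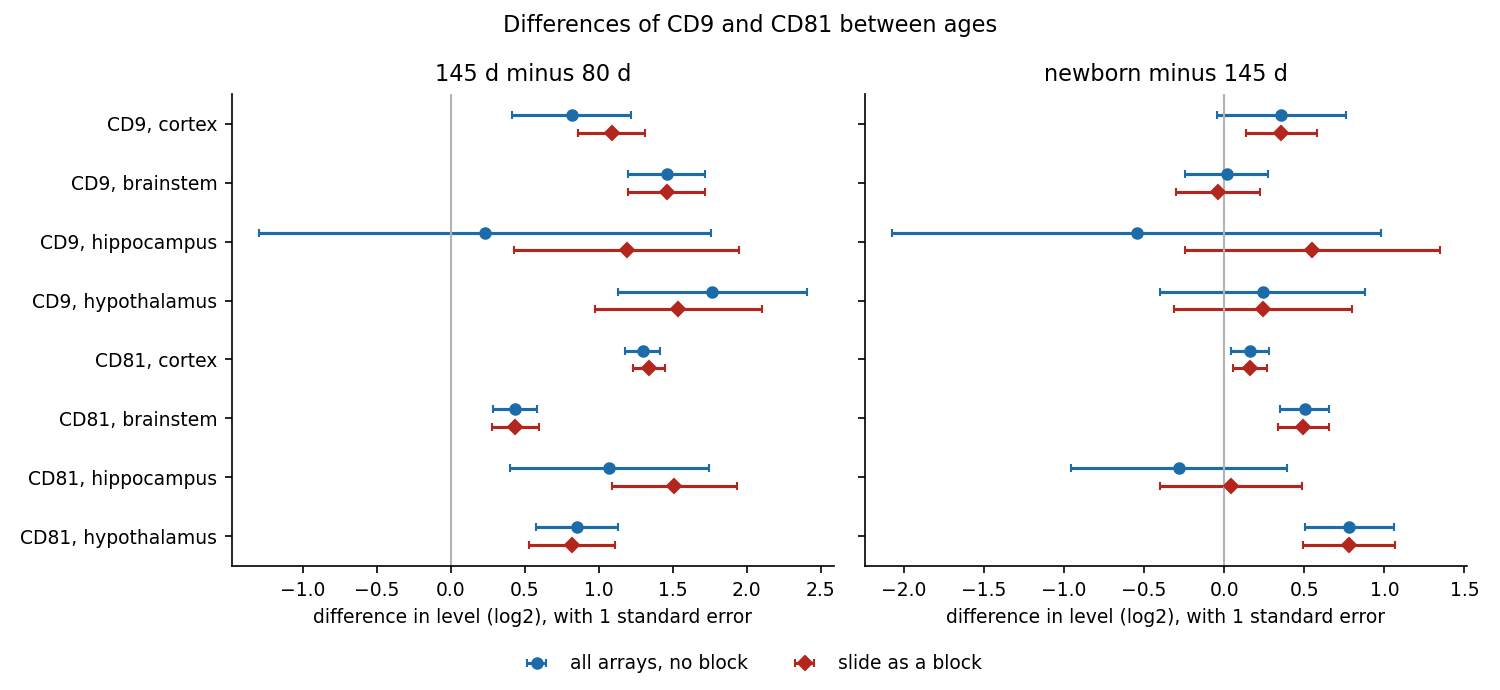
Points give the difference in level (log2) between 145 d and 80 d (left) and between newborn and 145 d (right) for CD9 and CD81 in each region, with bars of 1 standard error, from the fit of all arrays (blue circles) and from the fit with the slide as a block (red diamonds). The fetal differences were all positive, from 0.23 for CD9 in hippocampus to 1.77 for CD9 in hypothalamus, and the block moved those of CD9 in cortex and of both genes in hippocampus upward.

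Whether CD9 and CD81 changed by different amounts was tested on their difference within each array. In brainstem CD9 minus CD81 was 1.02 larger in 145 d arrays than in those of 80 d (p = 0.0571 by a two-sided exact permutation test, adjusted p = 0.457 over 8 comparisons). In cortex the difference ran the other way (-0.48, exact permutation test, p = 0.229, adjusted p = 0.751), and in hypothalamus and hippocampus it was 0.92 and -0.84. With 4 arrays against 4, 1 comparison alone cannot go below an adjusted p of 0.229 over 8, so these tests could not have called a single difference, and whether the 2 genes changed by different amounts was not settled.

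Between regions, CD81 differed at 80 d (F test over the 4 regions in 1 fit of all 95 arrays, adjusted p = 0.0175) and in newborn lambs (adjusted p = 0.0163), where 25.4% and 29.9% of genes differed, but not at 145 d (adjusted p = 0.572), where 36.3% did. The means at 80 d were 13.63 ± 0.18 in brainstem, 12.76 ± 0.20 in hypothalamus, 12.47 ± 0.72 in hippocampus and 12.24 ± 0.07 in cortex (SD, n = 4). Neighbors in this order were not shown to differ (adjusted p of 0.147 to 0.835), whereas cortex minus brainstem was -1.39 (adjusted p = 0.00628, 15.5% of genes called) and brainstem minus hippocampus 1.16 (adjusted p = 0.0332, 12.6% called). With quantile normalization within each region, cortex minus brainstem was -0.59 (adjusted p = 0.163), and with the processed signal brainstem minus hippocampus was 0.35 (adjusted p = 0.589). The F test at 80 d did not pass without brainstem 80 d replicate 1 (adjusted p = 0.0656), and that in newborn lambs did not without hippocampus newborn replicate 3 (adjusted p = 0.117). At 145 d the 4 means lay between 13.54 and 14.06. In newborn lambs they were 14.56 ± 0.37 in brainstem, 14.39 ± 0.24 in hypothalamus, 13.70 ± 0.12 in cortex and 13.26 ± 1.14 in hippocampus. Brainstem minus hippocampus was 1.30 (adjusted p = 0.0148, 11.8% called), which fell to 0.46 (adjusted p = 0.274) without slide 4 of hippocampus. The regions share animals, which the fit did not model. Same-numbered arrays of 2 regions at an age deviated together with a median r of 0.057 over 141 pairs, against -0.045 over 423 pairs with other numbers. Since every slide holds 1 region, slide and region cannot be told apart in these comparisons.

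CD9 had its highest means in brainstem at every age, and the order below was hypothalamus, hippocampus and cortex at 145 d (13.07 ± 0.33, 12.48 ± 1.76, 11.24 ± 2.58 and 10.68 ± 0.76, SD, n = 4). The F test over regions did not pass at 80 d (adjusted p = 0.437), 145 d (adjusted p = 0.0776) or in newborn lambs (adjusted p = 0.0536). Cortex minus brainstem at 145 d was -2.39 (standard error 0.88, adjusted p = 0.0395), with 23.5% of genes called in that comparison, and it did not pass without slide 3 of cortex (-1.74, adjusted p = 0.32), without any 1 brainstem 145 d array or without cortex 145 d replicate 1, 3 or 4 (-2.66 to -2.16, adjusted p up to 0.102), nor with quantile normalization within each region (-1.51, adjusted p = 0.111), and it kept its call under 12 of 17 other settings, with probe 2 alone (adjusted p = 0.0508), a normexp offset of 16 (0.0546) and the processed signal (0.0626) missing the threshold. These standard errors use a spread shared by the 4 regions, to which hippocampus slide 4 contributed. Without that slide the F test of CD9 passed at each of the 3 ages (adjusted p = 0.0336, 0.000785 and 0.00519). No difference between regions in the fetal change or in the step at birth passed for CD9 (adjusted p = 0.801 and 1) or CD81 (adjusted p = 0.681 and 0.975), in tests that 11.6% and 0.0812% of genes passed.

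Of 45 genes for proteins known to associate with CD9 or CD81, 16 were named on the array and 14 or 15 were tested in a region. The F test called 7 of 15 for cortex, 4 of 15 for brainstem, 0 of 15 for hippocampus and 2 of 14 for hypothalamus, where 45.7%, 40.6%, 3.07% and 16% of all genes passed. The median difference between 145 d and 80 d was 0.11, -0.08, -0.06 and -0.01 in the same order, near that of all genes (-0.02 to 0.01). ITGB1, the integrin beta 1 chain that both tetraspanins bind, rose in cortex by 0.41 (adjusted p = 0.00171) and was at -0.09 in brainstem, where its adjusted p was 0.639. ITGB2, the beta chain of leukocyte integrins, rose in cortex by 0.95 (adjusted p = 0.000837). ITGAV rose in brainstem by 0.49 (adjusted p = 0.000448) and ITGA4 fell there by 0.30 (adjusted p = 0.00332). CD5, a T cell surface protein, rose in brainstem (0.96) and hypothalamus (0.62), while 2 of the 5 lymphocyte marker genes fell in brainstem. ICAM1, the ligand of leukocyte integrins, rose from 145 d to newborn in cortex (0.64), brainstem (0.65) and hypothalamus (0.58). CR2 and CD3D passed the F test in cortex with fetal differences of 0.41 and 0.11 that did not pass (adjusted p = 0.0523 and 0.696).

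Marker genes of glial and blood cells are given beside CD9 and CD81 by list. The 3 named oligodendrocyte genes, TF, CX32 and CRYAB, rose between 80 d and 145 d in all 4 regions. Their median was 3.45 for cortex, 3.73 for brainstem, 4.72 for hippocampus and 4.19 for hypothalamus. The astrocyte genes, 7 of 15, had medians of 1.54, 1.20, 0.96 and 0.63, with 7, 6, 3 and 3 of the 7 rising in that order and 1 falling in brainstem. Of the 4 microglia and myeloid genes, 2, 0, 0 and 1 rose. Among all genes, 18.7%, 17%, 2.12% and 5.68% rose in this contrast. NEUROD1, the 1 neuronal gene named of a list of 22, fell in all 4 regions. The median differences of the platelet and lymphocyte lists were -0.15 to 0.12. Of the 5 lymphocyte genes, 0, 1, 0 and 1 rose and 2, 2, 0 and 0 fell in the same order of regions. Among all genes, 22.7%, 20.5%, 2.43% and 8.46% fell.

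Across birth, where no change of CD9 or CD81 passed, 0.163%, 3.68%, 0.00788% and 1.42% of all genes rose in the same order of regions. The oligodendrocyte median was -0.27, -0.01, -0.53 and -0.17, with 0 of 3 called. The astrocyte median was -0.074, -0.0017, 0.038 and 0.20, with 1, 2, 0 and 1 of 7 rising and 1 falling in hypothalamus. GFAP, 1 of these 7, rose in brainstem (1.05, adjusted p = 0.0321 from limma) and hypothalamus (1.64, adjusted p = 0.00663). It is named because it was closest to CD81 in pattern over means that include newborn lambs. Its rise is therefore no separate evidence on CD81, and the astrocyte medians did not follow it in brainstem. The medians of the microglia and myeloid genes were 0.53 to 0.70, with 0, 2, 0 and 1 of 4 rising. Those of the lymphocyte genes were 0.43 to 0.60, with 0 of 5 rising in each region, and that of the 1 platelet gene was 0.35 to 0.60, rising in brainstem and hypothalamus. The part of these cell types in the CD9 and CD81 values was not tested.

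Among 843 other named genes that passed the filter in all 4 regions, SMPD1, which encodes acid sphingomyelinase, had the pattern most like that of CD9 over the 24 means of region and age (Pearson's r = 0.92). It was followed by PLGF (0.91), EM4e (0.89), NPPC, the C-type natriuretic peptide precursor (0.88), and RAB9A, a small GTPase of late endosomes (0.87). For CD81 the closest was GFAP (r = 0.93), then RAB9A (0.87), SCD5, a fatty acid desaturase (0.87), PLGF (0.87) and PYGM, a glycogen phosphorylase (0.86). CD9 and CD81 correlated at 0.84, which ranked CD81 in place 11 for CD9 and CD9 in place 9 for CD81. The 24 means share regions and slides, so these values are a description with no test.

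**Figure D5:**
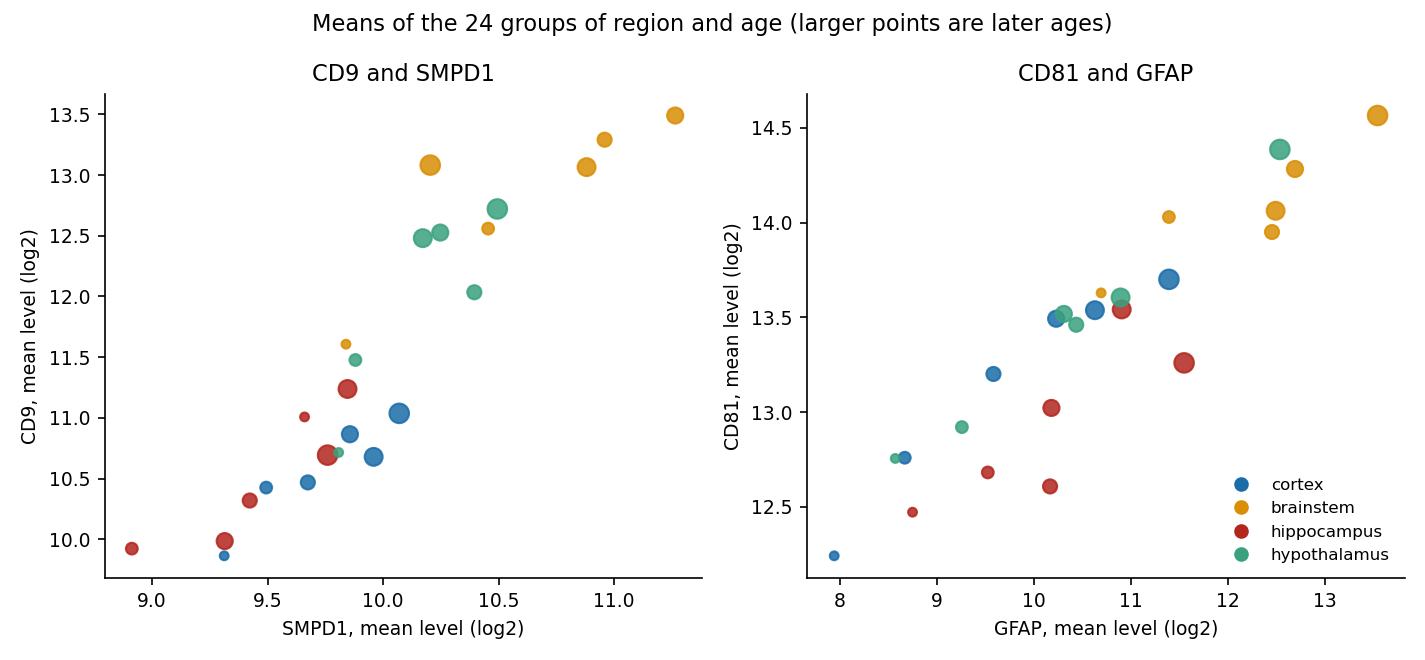
Each point is the mean of 1 of the 24 groups of region and age, with the level (log2) of SMPD1 on the horizontal and of CD9 on the vertical axis (left), and of GFAP and CD81 (right); color gives the region and larger points are later ages. Brainstem groups lie at the top right in both panels, and the correlations over the 24 means were 0.92 and 0.93.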

How the data were processed

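The authors labeled RNA with Cy3, hybridized 1 sample per array and deposited, for each array, the scanner software's mean and local background intensity of every spot on a linear scale (software version 10.1.1.1 in the file headers). Their deposited series table holds normalized log2 values, which correlated with the values computed here at 0.999 or more on each array, with slopes of 0.957 to 0.989 and column medians of 9.04 to 9.10, and were used as an alternative.

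Background was removed here with normexp (offset 50, limma 3.58.1, R 4.3.3), and the 95 arrays were quantile normalized. Spots with outlier marks were left out. Probes had to reach 1.1 times the 95th percentile of 77 negative controls on at least 4 arrays of a region. Spots of a probe and probes of a gene were averaged. Each region was fitted in limma over the 6 ages (contrasts, and an F test in which each of 5 ages was set against 80 d), regions were compared in 1 fit of all arrays, and p-values were adjusted by Benjamini-Hochberg over all genes tested, with a threshold of 0.05. Gene symbols came from the files and the RefSeq table of ARS-UI_Ramb_v3.0. The fit of each region was tested on simulated data with independent noise for each gene and array. That simulation held no slide effects and no shared animals. Same-numbered arrays of a region deviated together with a median r of 0.10 over 235 pairs, 118 of them over 0.1. The median r was -0.039 over 705 pairs with other numbers. The numbers were not taken as pairs in the main fit, and the replicate number as a block was an alternative. The number of arrays limits the precision.

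Members, lists and tests were chosen with earlier results of these data known. By rule, the text names CD9 and CD81, partners that passed an F test, the 5 named genes closest to each in pattern, and marker lists by count. The oligodendrocyte genes, ITGB1 in brainstem, GFAP, OXT and NEUROD1 are named as examples. The alternatives were those of the closing section.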

Additional observations from a re-analysis of the deposited data

Results flagged for a closer look

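In groups of 4 arrays, 5 of 90 sets of values for CD9, its probes and CD81 had 1 array far from the others, where chance gives about 1 in 20. CD9 in hypothalamus at 145 d was 9.87 on replicate 2 and 13.03 to 13.68 on the others. CD9 probe 2 alone read 7.54 there against 13.01 to 13.44. CD9 probe 2 in brainstem of newborn lambs was 10.27 on replicate 4, inside the dim area, against 13.27 to 13.62. CD81 in brainstem at 100 d was 13.80 on replicate 4 against 14.07 to 14.12. CD81 in hypothalamus at 145 d was 12.97 on replicate 1 against 13.72 to 13.87.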

How the results depend on the processing

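The alternatives other than leaving out 1 array were counted first for the F tests, the fetal differences and the steps at birth. Of these values for CD9 and CD81, 464 stayed on the same side of the threshold without a change of sign, 34 came to pass it, 4 no longer passed and 10 changed sign. The F tests have no direction, so only their side of the threshold was compared. Some alternatives change only spots of another region or gene and could move a value little, so these counts do not measure robustness. The called steps between neighboring fetal ages, the called pairs of regions and the differences within arrays were counted apart. Of those, 219 stayed the same, 11 no longer passed and 3 changed sign. The rise of CD9 in brainstem and of CD81 in cortex from 80 d to 145 d passed under each alternative (1.26 to 1.61 and 1.23 to 1.39 with 1 array left out). Where a cause is not shown by the alternative itself, it was not tested.

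With CD9 probe 1 alone, CD9 passed in cortex (F test, largest difference 1.28, adjusted p = 0.0374; fetal 0.86, 0.0408), in hypothalamus (2.41, 0.024; fetal 2.41, 0.00388) and between regions at 145 d (2.20, 0.0384) and in newborn lambs (2.50, 0.0297), and the step at birth in hypothalamus was -0.25. The brightest probe of each gene gave the same differences of 1.28, 0.86, 2.41, 2.41, 2.20, 2.50 and -0.25. With probe 2 alone the step at birth in brainstem was -0.42. Without the 1 spot of hypothalamus 145 d replicate 2, chosen after seeing the data, CD9 passed in hypothalamus (2.35 for the F test and the fetal difference) and between regions at 145 d (2.39) and in newborn lambs (2.39, adjusted p = 0.0421), and its step at birth in hypothalamus was -0.34.

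Without the last cortex slide CD9 passed in cortex (F test 1.33, fetal 1.31), and without the last hippocampus slide CD9 passed between regions at 80 d (1.74), 145 d (2.39) and in newborn lambs (2.04), CD81 passed in hippocampus (fetal 1.49), and the steps at birth there turned to 0.046 for CD9 and 0.14 for CD81. Both slides were left out after seeing the data. With the slide as a block, CD9 passed in cortex (F test 1.44, fetal 1.09) and CD81 in hippocampus (fetal 1.51), CD81 no longer passed in hypothalamus (fetal 0.82), and steps at birth changed sign for CD9 in brainstem (-0.037) and for CD9 (0.55) and CD81 (0.040) in hippocampus. With the slide as a random block, added after seeing the data, CD81 no longer passed between regions in newborn lambs (1.07, adjusted p = 0.0544).

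With the replicate number as a block, CD9 passed in cortex (F test 1.17, adjusted p = 0.00825; fetal 0.82, 0.0118) and hypothalamus (fetal 1.77, 0.0446), and CD81 no longer passed in hypothalamus (fetal 0.85, 0.0513). With no filter CD81 in hypothalamus did not pass either (fetal 0.85, 0.0504). With the dim area left out, the step of CD81 at birth passed in brainstem (0.50) and CD9 between regions in newborn lambs (2.86). With each spot's neighborhood deviation subtracted, CD81 passed at birth in brainstem (0.51) and hypothalamus (0.76), CD9 passed between regions in newborn lambs (2.35), and CD9 at birth in brainstem was -0.016. Quantile normalization within each region gave CD9 between regions in newborn lambs 2.57 (adjusted p = 0.0263). Among differences within an array, CD9 minus CD81 at birth in hippocampus was 0.0082 with the processed signal, and probe 2 minus probe 1 was 0.062 at birth in brainstem without the dim area and 0.026 for the fetal difference in hippocampus with normalization within regions.

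With 1 array left out in turn, CD81 at birth was 0.37 to 0.67 in brainstem and -0.70 to 0.24 in hippocampus, and its fetal difference 0.36 to 0.51 in brainstem and 0.76 to 1.06 in hypothalamus. There it lost its call without 80 d replicates 1, 2 or 4, 100 d replicates 3 or 4, 120 d replicates 2 or 3, 130 d replicate 1, 145 d replicates 2, 3 or 4, or newborn replicates 2, 3 or 4. CD81 between regions was 1.32 to 1.46 at 80 d and 0.86 to 1.63 in newborn lambs. CD9 at birth was -0.16 to 0.32 in brainstem, -1.74 to 0.46 in hippocampus and -0.63 to 0.64 in hypothalamus. The F test of CD9 gave 1.00 to 1.33 in cortex, where it passed without 120 d replicate 4, and 1.79 to 2.64 in hypothalamus, where it passed without 145 d replicate 2. Its fetal difference was 0.54 to 1.04 in cortex, -0.52 to 1.42 in hippocampus and 1.36 to 2.64 in hypothalamus, passing without those same arrays in cortex and hypothalamus. CD9 between regions was 2.16 to 2.67 at 145 d, passing without hippocampus 100 d replicate 3 or 145 d replicate 2 or 3 or hypothalamus 145 d replicate 2, and 2.04 to 3.17 in newborn lambs, passing without any of 13 arrays, of hippocampus and hypothalamus. Within arrays, CD9 minus CD81 at birth was -0.028 to 0.43 in cortex, -1.04 to 0.26 in hippocampus and -1.50 to 0.073 in hypothalamus. Probe 2 minus probe 1 was -1.21 to 0.062, -0.30 to 0.035 and -0.37 to 0.051 at birth in brainstem, cortex and hippocampus, and -0.19 to 0.18 for the fetal difference in hippocampus. The normexp offset narrows changes near background.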

Other observations

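With hippocampus left out, which was decided once its slides had been compared, the genes most like CD9 over the remaining 18 means of region and age were BCAT2, a branched-chain aminotransferase (Pearson's r = 0.95), NKX6.1, a neural transcription factor (0.94), NPC2, a lysosomal cholesterol carrier (0.94), PLGF (0.93) and CX32, the gap junction protein of oligodendrocytes (0.93). SMPD1 was no longer among the first 5. For CD81, GFAP stayed first (0.98), followed by FBXO32 (0.95), PYGM (0.92), MDD2 (0.92) and PTGER4 (0.92). CD81 came in place 43 for CD9 and CD9 in place 21 for CD81, with a correlation of 0.84 between them. These are descriptions over means that share slides and regions.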
